A study of Mus musculus with 15 samples.

Results

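The nuclear-encoded subunits of the mitochondrial respiratory chain were followed through mouse livers with YAP overexpression or LATS loss. Members were all genes whose symbol begins with Ndufa, Ndufb, Ndufc, Ndufs, Ndufv, Uqcr, Cox4 to Cox8 or Atp5, together with Sdha, Sdhb, Sdhc, Sdhd and Cyc1. The rule used gene names and no measured value. It matched 93 of the 24411 genes counted, of which 89 had 10 or more counts summed over all libraries and 87 passed the filter on low counts and were tested, among 13055 genes tested in all. The 93 comprised 36 subunits of complex I, 4 of complex II, 9 of complex III, 20 of complex IV and 16 gene products of complex V, plus 8 assembly factors of complex I that the symbols bring in.

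The respiratory chain is the set of protein complexes in the inner mitochondrial membrane that burns electrons from food with oxygen. Complexes I and II take electrons from NADH and succinate, complex III passes them to cytochrome c, complex IV hands them to oxygen, and complex V, the ATP synthase, uses the resulting proton gradient to make ATP. Most subunits are encoded in the nucleus and imported, while complexes I, III, IV and V also hold subunits encoded in mitochondrial DNA, which were not analysed here. Hepatocytes are rich in mitochondria and pay for gluconeogenesis and urea synthesis with this ATP.

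Poly(A) RNA of mouse liver was sequenced in 5 libraries labelled Yap OE (YAP_OE), 6 labelled LATS KO (LATS_KO) and 4 labelled TdTomato, the controls, in a study titled for monocytes and YAP-driven proliferation. YAP is a transcriptional coactivator that the LATS kinases inhibit, so overexpression and LATS loss both bear on YAP activity. TdTomato is a red fluorescent protein, and the series' design text calls the control group wild type. The promoter, vector or Cre behind these groups, the strain and the age of the mice are not given in the sources used here, and the extraction text of the labels describes a diet experiment that does not match these groups. Whether libraries in 1 group derive from different animals is not stated, so every p-value measures only the spread between these libraries and may reflect technical error.

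Levels are given as CPM, counts scaled to TMM-adjusted library size, and differences as log2 fold changes with their standard error (SE) from edgeR's quasi-likelihood test, called at a Benjamini-Hochberg adjusted p under 0.05 over all 13055 genes. Libraries held between 6166680 and 28225360 gene counts. TdTomato 1 and LATS_KO 3 stood apart, with 78.5% and 89.9% of their reads unmapped and 8501 and 9710 genes detected, against 2.53% to 16.7% unmapped and at least 13372 genes in the other 13. Yap1 had 146 to 212 CPM in YAP_OE libraries and 94.9 to 115 CPM in TdTomato libraries, with no overlap. Lats1 was at 0 in LATS_KO 3 and in TdTomato 1, and had 10.5 to 27.4 CPM in the other 5 LATS_KO libraries and 28.7 to 46.0 CPM in the other 3 TdTomato libraries, without overlap. Lats2 had 7.67 to 41.0 CPM in LATS_KO libraries and 0 to 19.6 CPM in TdTomato libraries. All 14 hepatocyte markers were tested and none was at 0 in a group.

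The promoters of members that moved in common are shown first, since the nuclear respiratory genes are known for shared promoter elements of NRF1, of ETS family factors such as GABPA, of YY1 and of the estrogen-related receptors (ERR). RefSeq promoters of GRCm38.p6, running from 250 bases before to 50 after the start, were found for 76 of the 93 members. Those of Atp5a1, Cox4i1, Cox4i2, Cox6a2, Cox6c, Cox8c, Cyc1, Ndufa2, Ndufa4l2, Ndufaf6, Ndufb9, Ndufs1, Sdhc, Uqcrb, Uqcrc2 and Uqcrq, among others, were not used here. Letters were searched on both strands, and no matches of different motifs overlapped in a member. The NRF1 letters GCGCANGCG stood in 22 members, 28.9% of the 76, against 7.03% of 27025 genes with a promoter. Those 27025 genes were not limited to genes expressed or tested in these livers, and no comparison with expressed genes alone was made. The ETS letters CCGGAAG stood in 17 members, 22.4%, against 9.93% of genes. The YY1 letters AAGATGGCG stood in 8 members, 10.5%, against 1.64% of genes, and the ERR letters TCAAGGTCA in 2 members, 2.63%, against 0.466%. The letters GGAATG, bound by the TEAD partners of YAP, stood in 8 members, 10.5%, against 16.6% of genes. Median GC content was 58% in members' promoters and 52.7% in all promoters. The first 4 sequences below are the members with both NRF1 and ETS letters upstream of a single start, Uqcr11 is the complex III member with the largest fall and 1 start, and Cox6b2 is a member with a positive fold change in YAP_OE livers. All lie on the minus strand and are printed as the 250 bases before the start, 5' to 3' in the direction of the gene, with the matched letters or their reverse complement in capitals. Matches that reach into the 50 bases after the start were counted above but are not printed. They are the NRF1 letters of Uqcr11 and the ERR letters of Sdhd. Sdhd is chr9:50603850-50604099, Cox6a1 is chr5:115348959-115349208, Atp5h is chr11:115419920-115420169, Atp5l is chr9:44920743-44920992, Uqcr11 is chr10:80406822-80407071 and Cox6b2, with no match, is chr7:4753095-4753344.
Sdhd: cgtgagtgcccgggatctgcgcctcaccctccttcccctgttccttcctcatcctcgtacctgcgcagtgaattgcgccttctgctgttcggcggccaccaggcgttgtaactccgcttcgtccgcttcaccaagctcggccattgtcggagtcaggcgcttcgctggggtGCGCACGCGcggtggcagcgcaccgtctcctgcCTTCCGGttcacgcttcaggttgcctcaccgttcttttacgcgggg
Cox6a1: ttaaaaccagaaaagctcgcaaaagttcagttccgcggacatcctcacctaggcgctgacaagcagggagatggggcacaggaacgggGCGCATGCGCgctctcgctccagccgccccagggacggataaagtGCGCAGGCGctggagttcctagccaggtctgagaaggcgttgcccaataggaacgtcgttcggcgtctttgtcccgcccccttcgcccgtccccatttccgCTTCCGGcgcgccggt
Atp5h: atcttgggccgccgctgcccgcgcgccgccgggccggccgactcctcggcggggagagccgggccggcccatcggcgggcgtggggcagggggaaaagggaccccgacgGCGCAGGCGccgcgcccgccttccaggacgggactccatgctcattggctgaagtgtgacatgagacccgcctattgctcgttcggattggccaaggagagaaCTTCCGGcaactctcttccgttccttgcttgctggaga
Atp5l: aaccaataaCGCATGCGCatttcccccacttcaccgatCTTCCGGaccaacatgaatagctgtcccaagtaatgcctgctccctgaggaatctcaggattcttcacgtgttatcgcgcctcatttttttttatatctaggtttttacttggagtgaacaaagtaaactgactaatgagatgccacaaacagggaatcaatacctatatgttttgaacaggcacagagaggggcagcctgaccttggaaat
Uqcr11: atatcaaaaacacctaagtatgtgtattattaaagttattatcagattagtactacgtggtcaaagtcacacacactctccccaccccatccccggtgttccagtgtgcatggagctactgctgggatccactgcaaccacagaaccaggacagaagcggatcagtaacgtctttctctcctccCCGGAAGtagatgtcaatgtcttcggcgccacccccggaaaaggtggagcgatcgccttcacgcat
Cox6b2: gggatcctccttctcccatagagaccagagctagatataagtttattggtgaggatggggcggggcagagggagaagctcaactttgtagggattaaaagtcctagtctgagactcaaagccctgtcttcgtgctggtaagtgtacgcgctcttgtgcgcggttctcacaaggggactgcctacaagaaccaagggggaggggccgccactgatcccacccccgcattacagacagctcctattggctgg

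YAP_OE livers had less RNA for respiratory chain subunits of every complex than TdTomato livers. Of the 87 members tested, 67 fell and 0 rose by edgeR, against 28.7% of all genes called in either direction, 10.8% called lower and 17.9% called higher. The members' median log2 fold change was -1.26, against 0.17 for all genes, and 85 of the 87 lay below 0, against 43.6% of all genes. DESeq2 called 69 lower and 0 higher, and limma voom with quality weights 84 lower and 1 higher. Of all genes, DESeq2 called 3512 higher and 1518 lower (11.6%), and voom called 4698 higher and 4174 lower (32%). An unadjusted p under 0.05 was reached by 78 members and by 39.6% of all genes. The 67 comprised 29 of 35 complex I subunits (median -1.22 over the tested subunits), 3 of 4 complex II subunits (-1.55), all 9 complex III subunits (-1.41), 10 of 15 complex IV genes (-1.44), 14 of 16 complex V genes (-1.23) and 2 of 8 complex I assembly factors (-0.88). In 41 of the 87 members, 39 of them called, every YAP_OE library lay below every TdTomato library, against 13.4% of all genes. In bulk tissue, fewer cells of a type and less RNA per cell cannot be told apart.

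With TMM scaling, the summed levels of the module separated YAP_OE from TdTomato libraries. The number of calls depended on which library was left out. Summed over the members, the level was 7452, 6836, 6378, 6804 and 11136 CPM in YAP_OE livers, and 25256, 16149, 14177 and 20552 CPM in TdTomato livers. These TMM-scaled sums do not overlap, and YAP_OE 5 is the highest of its group. TdTomato 1, the library with most reads unmapped among the controls, is the highest of all 15. As a plain share of gene counts, the members made up 0.815% to 1.133% in YAP_OE livers and 1.120% to 2.41% in TdTomato livers. By that share the groups overlap, with YAP_OE 5 above TdTomato 3. Leaving out TdTomato 1 left 38 members called by edgeR, 37 lower and 1 (Cox6b2) higher, leaving out TdTomato 4 left 43, and leaving out YAP_OE 1, 2, 3 or 4 left 41, 39, 38 or 37. Without YAP_OE 5, 74 were called, and 30 of the 67 kept their call without each of the 15 libraries in turn. With TdTomato 1 and LATS_KO 3 both left out, 52 were called, and with YAP_OE 5 left out as well, 79. In both of these fits 21.2% of all genes were called lower, against 10.8% with all libraries. Without 1 library that share lay between 6.22% (YAP_OE 4 left out) and 15.7% (LATS_KO 3 left out). The members' call counts therefore moved against a changing background. Scaling by library size alone, with no TMM factors, moved the median of all genes to 0.73 and that of the members to -0.80, with 32 called. The split of all genes called was then 3265 higher and 612 lower, against 2332 higher and 1412 lower with TMM.

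Among the 73 tested members with a promoter, all 17 with ETS letters were called lower in YAP_OE than in TdTomato livers, with a median log2 fold change of -1.44. Of the 56 without these letters, 38 were called lower and 54 lay below 0, with a median of -1.16. The calls themselves hung on single libraries, since 31 of the 67 members called ended without TdTomato 1. Among those with ETS letters, the calls of Atp5e, Atp5k, Cox6a1, Cox6b1 and Uqcrh were lost without TdTomato 1. That of Ndufaf1 was lost without TdTomato 2, 3 or 4. For the NRF1 letters, 16 of 21 members with a match and 39 of 52 without were called lower. These are counts of letters beside calls, with no test, and a match is not a bound site.

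**Figure D1:**
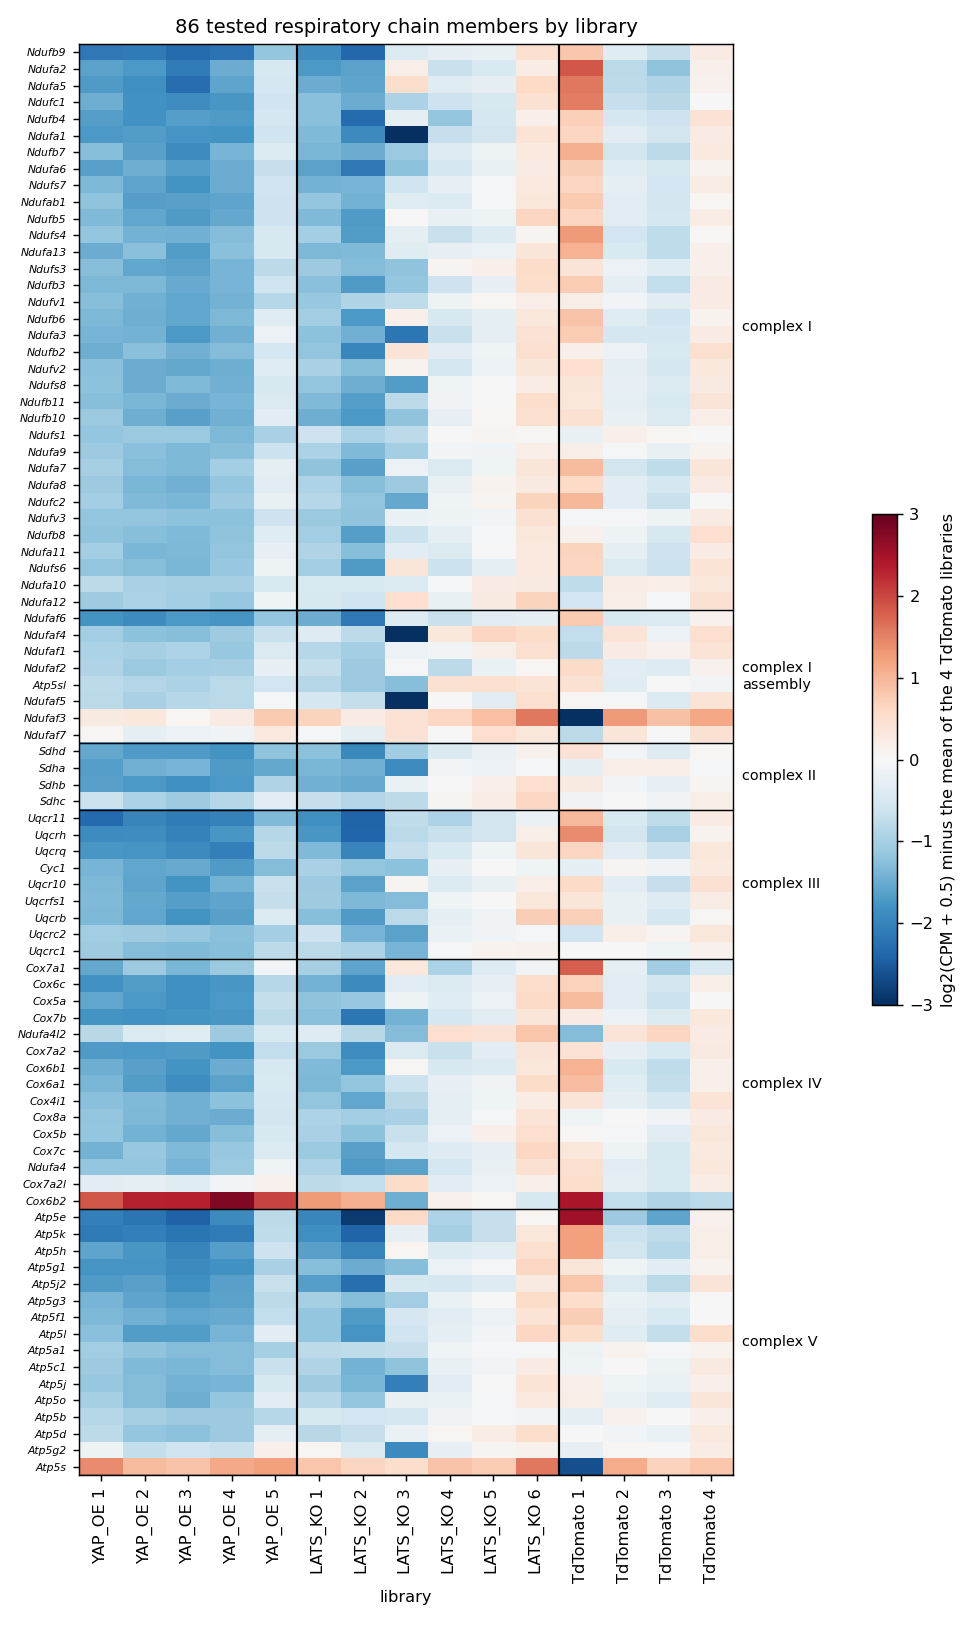
Heat map of 86 of the 87 tested members (rows, grouped by complex) in 15 libraries (columns, YAP_OE, LATS_KO, TdTomato), coloured by log2(CPM + 0.5) minus the mean of the TdTomato libraries, blue for lower and red for higher. YAP_OE 1 to 4 are blue in nearly every row, YAP_OE 5 is paler, LATS_KO 1 and 2 look like YAP_OE 1 to 4, and LATS_KO 5 and 6 do not.

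Complex I, which oxidises NADH, has core subunits that carry the flavin and iron-sulphur clusters and accessory subunits around them. All 7 tested core subunits fell in YAP_OE livers, with a median log2 fold change of -1.20, and 22 of 28 accessory subunits fell, with a median of -1.24. Ndufs1 (chr1:63143596-63176833, minus strand, GRCm38), the largest iron-sulphur subunit, had 76.2, 79.0, 78.1, 67.0 and 87.1 CPM in YAP_OE livers, and 145, 191, 176 and 172 CPM in TdTomato livers. The groups do not overlap and lie close within themselves. Its log2 fold change was -1.14 ± 0.23 (SE, edgeR adjusted p = 0.00402). Ndufv1 (chr19:4007384-4012806, minus strand), which binds NADH and the flavin, had 113, 101, 93.0, 103 and 152 CPM in YAP_OE livers, and 312, 259, 216 and 322 CPM in TdTomato livers. These do not overlap either, and YAP_OE 5 is the highest of its group (log2 fold change -1.30 ± 0.28, edgeR adjusted p = 0.00546).

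Among the accessory subunits the largest fall was that of Ndufb9 (chr15:58933756-58939488, plus strand), a subunit of the membrane arm. It had 63.5, 64.8, 56.3, 60.1 and 126 CPM in YAP_OE livers, and 497, 222, 174 and 334 CPM in TdTomato livers. YAP_OE 5 is the highest of its group and TdTomato 1 of its own, and the groups do not overlap (log2 fold change -2.05 ± 0.49, edgeR adjusted p = 0.00836). Ndufs4, a subunit known from mouse models of Leigh syndrome, had 47.6, 40.3, 39.2, 43.1 and 77.6 CPM in YAP_OE livers, and 263, 72.8, 63.8 and 110.5 CPM in TdTomato livers. Here YAP_OE 5 overlaps TdTomato 2 and 3, and the call (log2 fold change -1.36 ± 0.41, edgeR adjusted p = 0.0234) was lost without TdTomato 1 or without any of YAP_OE 1 to 4. Ndufc1 fell by 1.77 ± 0.50 on the log2 scale (edgeR adjusted p = 0.0171), a call that TdTomato 1, at 166 CPM against 31.9 to 56.6 CPM in the other TdTomato livers, decided, since without it the adjusted p was 0.0926. The 6 complex I subunits that were not called, Ndufa12, Ndufb10, Ndufa7, Ndufa3, Ndufs6 and Ndufc2, had edgeR adjusted p-values between 0.0512 and 0.0757.

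Assembly factors of complex I build it and are not part of the finished enzyme. Of the 8, Ndufaf6 and Ndufaf1 were called. Ndufaf6 (chr4:11051045-11076205, minus strand) had 5.39, 5.04, 5.72, 5.5 and 8.43 CPM in YAP_OE livers, and 34.6, 14.3, 14.5 and 21.7 CPM in TdTomato livers, with no overlap (log2 fold change -1.82 ± 0.45, edgeR adjusted p = 0.00891). Ndufaf1, a chaperone of the early membrane arm, had 15.4, 14.9, 15.7, 13.6 and 22.5 CPM in YAP_OE livers, and 17.3, 36.2, 33.0 and 40.7 CPM in TdTomato livers. TdTomato 1 is within the YAP_OE range, and the call (log2 fold change -0.95 ± 0.33, edgeR adjusted p = 0.0415) was lost without TdTomato 2, 3 or 4, LATS_KO 4 or any of YAP_OE 1 to 4, with an adjusted p of up to 0.123. Ndufaf2 had 6.34 to 11.9 CPM in YAP_OE livers and 10.7 to 21.4 CPM in TdTomato livers and was not called (log2 fold change -0.91 ± 0.39, edgeR adjusted p = 0.0923).

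Complex II is succinate dehydrogenase, the only complex that is also a citric acid cycle enzyme and has no mitochondrially encoded subunit. All 4 of its subunits were lower in every YAP_OE library than in every TdTomato library, and 3 were called. Sdha (chr13:74322254-74350280, minus strand), the flavoprotein that oxidises succinate, had 243, 284, 289, 233 and 262 CPM in YAP_OE livers, and 627, 876, 858 and 729 CPM in TdTomato livers. No library of either group stood apart (log2 fold change -1.56 ± 0.36, edgeR adjusted p = 0.00681). Sdhb (chr4:140961203-140979193, plus strand), the iron-sulphur subunit, had 84.1, 77.8, 72.2, 78.8 and 138 CPM in YAP_OE livers, and 313, 244, 217 and 273 CPM in TdTomato livers. YAP_OE 5 was again the highest of its group (log2 fold change -1.54 ± 0.37, edgeR adjusted p = 0.00848). Sdhd (chr9:50596357-50603812, minus strand), a membrane anchor that helps bind ubiquinone and the first promoter shown above, had 95.7, 85.0, 86.0, 80.6 and 121 CPM in YAP_OE livers, and 375, 265, 214 and 286 CPM in TdTomato livers. It fell by 1.60 ± 0.34 on the log2 scale (edgeR adjusted p = 0.00493). The other anchor, Sdhc, had 155, 125, 116, 134 and 196 CPM in YAP_OE livers, and 226, 245, 227 and 275 CPM in TdTomato livers, and was not called (log2 fold change -0.75 ± 0.30, edgeR adjusted p = 0.0733).

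Complex III, the cytochrome bc1 complex, was the one in which all tested members fell, with log2 fold changes between -2.08 and -1.14. Cyc1 (chr15:76343523-76346260, plus strand), cytochrome c1, had 103, 91.2, 93.4, 82.9 and 109 CPM in YAP_OE livers, and 221, 284, 250.4 and 329 CPM in TdTomato livers. The groups are far apart beside their spread, and this was the smallest p among the 87 members (log2 fold change -1.50 ± 0.27, edgeR adjusted p = 0.00259). Uqcr11 (chr10:80402997-80406830, minus strand), a small subunit, had 36.4, 46.6, 43.0, 44.9 and 73.4 CPM in YAP_OE livers, and 365, 134, 109 and 219.7 CPM in TdTomato livers, without overlap (log2 fold change -2.08 ± 0.43, edgeR adjusted p = 0.00436). Uqcrc1, a core subunit on the matrix side, had 149.8 to 219.7 CPM in YAP_OE livers and 348 to 414 CPM in TdTomato livers (log2 fold change -1.14 ± 0.30, edgeR adjusted p = 0.0112). Uqcrh, the hinge subunit that docks cytochrome c1, had 67.5, 69.1, 61.3, 75.6 and 139 CPM in YAP_OE livers, and 671, 172, 129 and 274 CPM in TdTomato livers. YAP_OE 5 overlaps TdTomato 3, and the call (log2 fold change -1.92 ± 0.52, edgeR adjusted p = 0.0136) was lost without TdTomato 1 (adjusted p = 0.0601). Complex III took 11.4% to 11.9% of the members' summed CPM in YAP_OE livers, 10.5% to 13% in LATS_KO livers and 12.8% to 13.6% in TdTomato livers, so its share of the module was lower in each YAP_OE library than in each TdTomato library. The shares of complexes I, II, IV and V overlapped between these groups. That of the complex I assembly factors was higher in each YAP_OE library (1.06% to 1.25%) than in each TdTomato library (0.579% to 1.03%).

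Complex IV, cytochrome c oxidase, holds a set of subunits found in all tissues and isoforms tied to a tissue or condition. All its called members were of the first kind. Of 11 subunits with the common role, 10 fell, and the exception, Ndufa4, had a log2 fold change of -0.98 ± 0.42 (edgeR adjusted p = 0.0921). Cox7a2 (chr9:79755361-79759878, minus strand), the form of subunit 7a used in liver, had 50.04, 49.5, 50.1, 47.4 and 98.4 CPM in YAP_OE livers, and 222, 138, 119 and 199.7 CPM in TdTomato livers. The groups do not overlap, with YAP_OE 5 nearest to the controls (log2 fold change -1.52 ± 0.37, edgeR adjusted p = 0.00893). Cox5a (chr9:57521274-57532426, plus strand), a matrix subunit, had 87.8, 77.8, 72.1, 78.5 and 159 CPM in YAP_OE livers, and 506, 205, 167 and 263 CPM in TdTomato livers, also without overlap (log2 fold change -1.58 ± 0.40, edgeR adjusted p = 0.00995). Cox4i1, the regulatory subunit with the highest level per kb of transcript in complex IV in TdTomato livers, had 262, 249, 228, 264 and 437 CPM in YAP_OE livers, and 821, 516, 433 and 826 CPM in TdTomato livers. YAP_OE 5 just overlaps TdTomato 3, and the call (log2 fold change -1.17 ± 0.36, edgeR adjusted p = 0.0237) was lost without TdTomato 1 or 4 or any of YAP_OE 1 to 4, with adjusted p-values up to 0.0704. The log2 fold changes were -1.62 for Cox6c, -1.57 for Cox7b, -1.47 for Cox6b1, -1.44 for Cox6a1 and -1.17 for Cox8a, all called, though those of Cox6a1 and Cox6b1 were lost without TdTomato 1, with adjusted p-values up to 0.0756 and 0.0915 over the libraries left out.

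The 3 tested isoforms missed the threshold with all libraries in. Cox6b2 (chr7:4751792-4753094, minus strand), known as the testis form of subunit 6b, had 4.49, 6.34, 6.47, 8.93 and 5.14 CPM in YAP_OE livers, and 6.97, 0.331, 0.238 and 0.287 CPM in TdTomato livers. All YAP_OE libraries exceeded TdTomato 2, 3 and 4, while TdTomato 1 lay among the YAP_OE values. It was not called with all libraries (log2 fold change 1.69 ± 1.10, edgeR adjusted p = 0.281), and without TdTomato 1 it rose by 4.42 (adjusted p = 0.00795 for Cox6b2). Cox7a1, the heart and muscle form, had 0.708 to 2.78 CPM in YAP_OE livers, and 11.6, 2.37, 1.19 and 2.06 CPM in TdTomato livers (log2 fold change -1.70 ± 0.75, edgeR adjusted p = 0.103). Ndufa4l2, a hypoxia-induced relative of Ndufa4, had 0.0715 to 0.449 CPM in YAP_OE livers and 0 to 1.43 CPM in TdTomato livers and was not called (log2 fold change -1.53 ± 1.02, edgeR adjusted p = 0.293). The other forms were too low to test. Cox4i2 had 14 counts over all libraries, Cox6a2 had 11, Cox8b had 1, and Cox7b2 and Cox8c had 0. Of complex I, Ndufs5 alone had 0 counts, and 41.2% of its transcript's 50-base words also occur in another gene, BC002163 (why it had none was not tested).

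**Figure D2:**
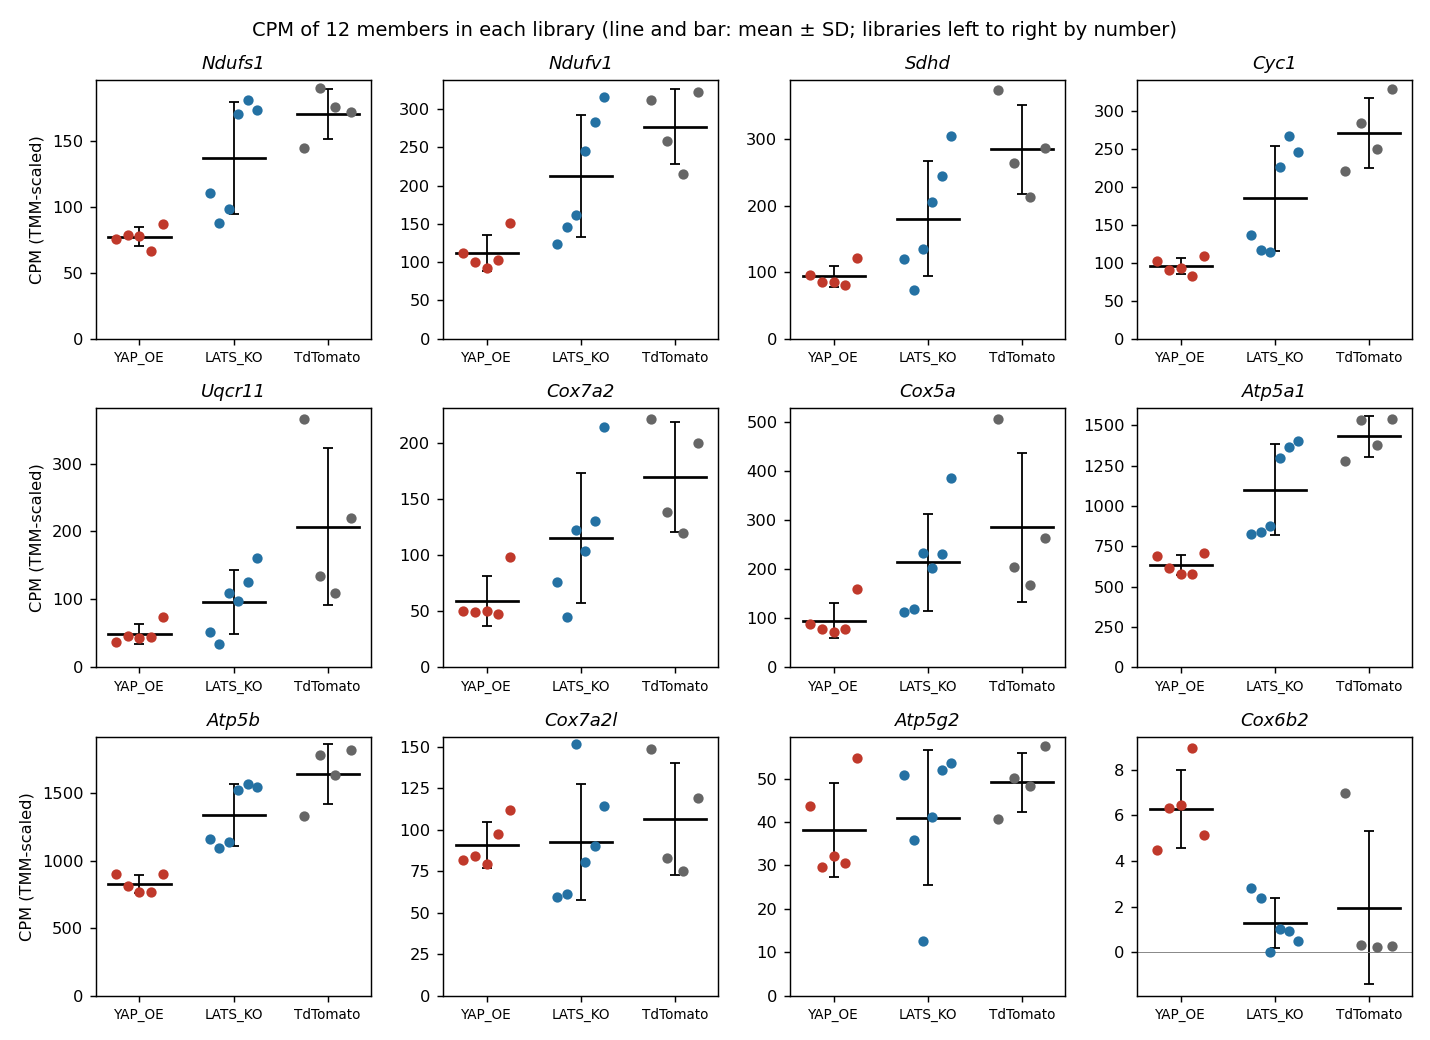
CPM (TMM-scaled) of 12 members in each library, with 1 panel per member, YAP_OE, LATS_KO and TdTomato from left to right, 1 point per library and the mean ± SD as a line and bar. Ndufs1, Cyc1, Atp5a1 and Atp5b separate YAP_OE from both other groups, Cox7a2l and Atp5g2 overlap in all 3 groups, and TdTomato 1 is the only high Cox6b2 control at 6.97 CPM.

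Complex V, the ATP synthase, turns the proton gradient into ATP, with a catalytic F1 head, a rotating c ring and a stalk with membrane subunits. All 5 F1 subunits fell, all 7 stalk and membrane subunits fell, and 2 of 3 c ring genes fell. Atp5b (chr10:128083273-128090391, plus strand), the catalytic beta subunit, had 898, 812, 765, 769 and 903 CPM in YAP_OE livers, and 1334, 1780, 1630 and 1822 CPM in TdTomato livers, with no overlap (log2 fold change -0.99 ± 0.22, edgeR adjusted p = 0.00587). Atp5a1, the alpha subunit beside it, had 691, 616, 579.5, 578 and 711 CPM in YAP_OE livers, and 1280, 1534, 1376 and 1537 CPM in TdTomato livers (log2 fold change -1.17 ± 0.24, edgeR adjusted p = 0.00402). In both, no library stood apart. Atp5e, the epsilon subunit of the central stalk, had 71.2, 64.0, 54.5, 78.8 and 172 CPM in YAP_OE livers, and 1736, 138, 98.4 and 322 CPM in TdTomato livers. TdTomato 1 is far above the other 3, YAP_OE 5 overlaps the controls, and the call (log2 fold change -2.70 ± 0.80, edgeR adjusted p = 0.0217) was lost without TdTomato 1 or YAP_OE 1, 3 or 4, with adjusted p-values up to 0.212. Atp5k, a small membrane subunit, fell by 1.97 ± 0.54 on the log2 scale (edgeR adjusted p = 0.015), a call lost without TdTomato 1 (adjusted p = 0.0575). Atp5s, coupling factor B, was not called (log2 fold change 0.68 ± 0.80, edgeR adjusted p = 0.58).

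Short transcripts differed between libraries, and most members are short, with a median transcript length of 763 bases. Taking each gene's log2 CPM relative to its mean over all 15 libraries, the median of all genes up to that length minus that of longer genes was -0.36, -0.55, -0.66, -0.40 and 0.30 in YAP_OE 1 to 5, and 1.37, -0.11, -0.21 and 0.44 in TdTomato 1 to 4. Members at or under the median length had a median log2 fold change of -1.36 with 33 of 44 lower, against -0.35 and 88 of 448 for all genes of that length. Longer members had a median of -1.17 with 34 of 43 lower, against 0.18 and 1292 of 12153 for all longer genes. A correction for transcript length left 49 members lower and 1 higher, with a median of -0.74, while 10% of all genes were called lower. The part of the length skew in the fall was not tested further.

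In LATS_KO livers no member was called against the same TdTomato libraries. By edgeR, 0 of the 87 members passed the threshold, against 11% of all genes called and 0.973% called lower. An unadjusted p under 0.05 was reached by 3 (25.3% of all genes). DESeq2 called 0 and limma voom with quality weights called 2, both higher. Of all genes, DESeq2 called 2535 higher and 359 lower, and voom 2109 higher and 1395 lower. In a fit with the replicate number as a further factor, 13 members were called, all lower (1.21% of all genes were called lower). Number 6 occurs only in LATS_KO, so that fit takes LATS_KO 6 out of the comparison, and number 5 has no TdTomato library. Without LATS_KO 6 and with no such factor, 1 member was called, lower (1.45% of all genes), 30 had an unadjusted p under 0.05, and the members' median was -0.69. With all libraries and no such factor, the median log2 fold change was -0.47, against 0.13 for all genes, and 83 of 87 lay below 0, against 42.9% of all genes. Every member's range in LATS_KO livers overlapped that in TdTomato livers, while 1.9% of all genes lay apart on the low side and 6.65% on the high side. By complex, the medians were -0.47 for I, -0.45 for II, -0.55 for III, -0.50 for IV, -0.44 for V and -0.20 for the complex I assembly factors. Under voom the medians of complexes I, III, IV and V turned to between 0.024 and 0.053. The smallest adjusted p was that of Uqcr11, with 34.6, 103 and 160.2 CPM as the lowest, median and highest of the LATS_KO livers, against 109 to 365 CPM in TdTomato livers (log2 fold change -1.10 ± 0.40, edgeR adjusted p = 0.0912).

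The 6 LATS_KO libraries reached from the range of YAP_OE libraries into that of TdTomato libraries. The members summed to 8705, 7318, 11456, 14946, 16618 and 21760 CPM in LATS_KO 1 to 6, and to 14177 to 25256 CPM in TdTomato livers. LATS_KO 1 and 2 were as low as YAP_OE libraries, and LATS_KO 4 to 6 lay within the TdTomato range. The 14 hepatocyte markers summed to 103213, 88635, 46584, 194595, 182247 and 207932 CPM in LATS_KO 1 to 6, and to 123033 to 197922 CPM in TdTomato livers, so LATS_KO 1 to 3 were low in both sums. The part of the marker level in the members' levels was not tested. Of the 87 members, 77 and 81 lay below every TdTomato library in LATS_KO 1 and 2, then 47, 16, 0 and 0 in LATS_KO 3 to 6, and 27 lay above every TdTomato library in LATS_KO 6. In YAP_OE 1 to 5 the members below every TdTomato library numbered 80, 81, 81, 81 and 41. The share of reads assigned to no feature was 7.05% and 6.57% in LATS_KO 1 and 2, 17.2% to 25.8% in LATS_KO 3 to 6 and 6.11% to 14.9% in YAP_OE libraries, highest in YAP_OE 5, and was 14.3%, 6.68%, 9.93% and 6.57% in TdTomato 1 to 4. The part of this share in the members' levels was not tested. Among single members, Ndufs1 had 87.7, 141 and 181 CPM as lowest, median and highest in LATS_KO livers, Sdha 205, 488 and 744 CPM, Cox4i1 210.1, 434 and 729 CPM, and Atp5e 39.8, 169 and 439 CPM. Their log2 fold changes against TdTomato livers were -0.32 ± 0.22, -0.66 ± 0.34, -0.55 ± 0.34 and -1.52 ± 0.74 (SE), none called, and that of Atp5e was 0.10 without TdTomato 1.

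**Figure D3:**
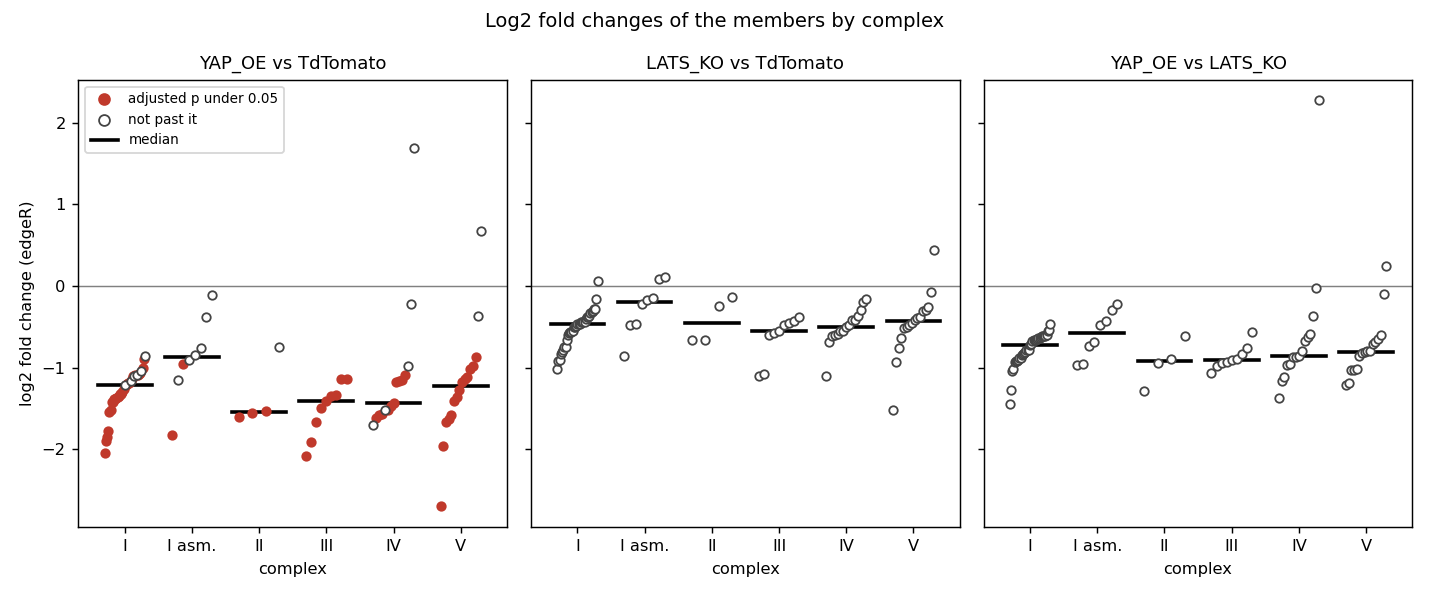
Log2 fold changes (edgeR) of the tested members by complex in 3 panels, YAP_OE over TdTomato, LATS_KO over TdTomato and YAP_OE over LATS_KO, with 1 point per gene, filled red where the adjusted p is under 0.05, and a bar at the median. Red points stand only in the first panel, where the medians lie between -1.55 and -0.88, and Cox6b2 is the highest point of both YAP_OE panels.

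Set directly against LATS_KO livers, YAP_OE livers had lower levels for most members but no called difference. By edgeR, 0 of 87 members passed the threshold, against 0.988% of all genes, although 47 had an unadjusted p under 0.05 (14.6% of all genes). DESeq2 called 8 lower, and voom called 83 lower and 1 higher. Of all genes, DESeq2 called 423 higher and 356 lower (2.73%), and voom called 3702 higher and 3623 lower (27.8%). The median log2 fold change was -0.80, against -0.03 for all genes. In 5 members, Ndufs1, Ndufa10, Cyc1, Atp5a1 and Atp5b, every YAP_OE library lay below every LATS_KO library, against 1.95% of all genes, and in 1, Cox6b2, every YAP_OE library lay above, against 4.76%. Ndufs1 had 67.0 to 87.1 CPM in YAP_OE livers and 87.7 to 181 CPM in LATS_KO livers (log2 fold change -0.82 ± 0.21, edgeR adjusted p = 0.0828). Cyc1 had 82.9 to 109 CPM in YAP_OE livers and 114 to 268 CPM in LATS_KO livers (log2 fold change -0.95 ± 0.25, edgeR adjusted p = 0.0882). Sdhb had 72.2 to 138 CPM in YAP_OE livers and 89.9 to 366 CPM in LATS_KO livers, which overlap (log2 fold change -1.29 ± 0.34, edgeR adjusted p = 0.0909). The count rested on single libraries, with 1 member called without LATS_KO 1 and 5 called without LATS_KO 2 or LATS_KO 3. Of all genes, 0.469%, 1.54% and 1.92% were called lower in these 3 fits.

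Where 1 position in a complex can be filled from several genes, the share of each was compared within a library, which does not depend on scaling. Cox7a2l and Atp5g2 were not called in YAP_OE livers, while Cox7a2, Atp5g1 and Atp5g3 fell. Cox7a2l (chr17:83501918-83517330, minus strand), a relative of Cox7a2 known for joining complexes III and IV into supercomplexes, had 82.0, 84.1, 79.2, 97.6 and 112 CPM in YAP_OE livers, and 149, 83.3, 75.1 and 119 CPM in TdTomato livers. The groups overlap throughout (log2 fold change -0.23 ± 0.28, edgeR adjusted p = 0.599), and the sign turned with library size alone (0.26), after length correction (0.23) and under voom (0.041). As a share of the counts of Cox7a2 and Cox7a2l together it made up 62.1%, 62.9%, 61.3%, 67.3% and 53.2% in YAP_OE livers, 43.9%, 57.6%, 55.4%, 43.8%, 40.8% and 34.8% in LATS_KO 1 to 6, and 40.1%, 37.6%, 38.6% and 37.4% in TdTomato livers. Every YAP_OE library lies above every TdTomato library, and the LATS_KO libraries span both. Of the transcript words of Cox7a2l, 19.8% occur in other genes.

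The c subunit of the ATP synthase ring is the same mature protein from 3 genes, Atp5g1, Atp5g2 and Atp5g3. Atp5g1 had 59.3, 58.9, 53.3, 57.4 and 104 CPM in YAP_OE livers, and 263, 184, 159.9 and 218 CPM in TdTomato livers (log2 fold change -1.63 ± 0.40, edgeR adjusted p = 0.00861). Atp5g3 had 182 to 338 CPM in YAP_OE livers and 453 to 837 CPM in TdTomato livers (log2 fold change -1.40 ± 0.36, edgeR adjusted p = 0.0112). Both are below the controls in every YAP_OE library. Atp5g2 (chr15:102662864-102672352, minus strand) had 43.6, 29.7, 32.1, 30.6 and 54.6 CPM in YAP_OE livers, and 40.7, 50.1, 48.4 and 57.4 CPM in TdTomato livers, which overlap (log2 fold change -0.37 ± 0.33, edgeR adjusted p = 0.452, and above 0 with library size alone at 0.15 and after length correction at 0.074). Its share of the 3 genes' counts was 13.5%, 10.5%, 12%, 11.1% and 11% in YAP_OE livers, 12.1%, 10.3%, 3.33%, 5.68%, 6.3% and 4.45% in LATS_KO 1 to 6, and 3.57%, 6.76%, 7.31% and 6.71% in TdTomato livers, again higher in every YAP_OE than in every TdTomato library. These values are uncertain, since 87.4% of the transcript words of Atp5g2 and 66.0% of those of Atp5g1 occur in other genes, and multiply mapped reads entered no gene's count. Cox6b2 made up 3.58%, 5.54%, 6.29%, 6.97% and 2.10% of Cox6b1 and Cox6b2 counts in YAP_OE livers, 2.06%, 2.31%, 0%, 0.42%, 0.37% and 0.11% in LATS_KO 1 to 6, and 0.99%, 0.14%, 0.12% and 0.08% in TdTomato livers. In all, 22 of the 93 members shared over 10% of their words with other genes, and Atp5l, Ndufa12, Cox7c, Atp5h and Uqcrb, at 43.2% to 68.5%, are uncertain in the same way.

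**Figure D4:**
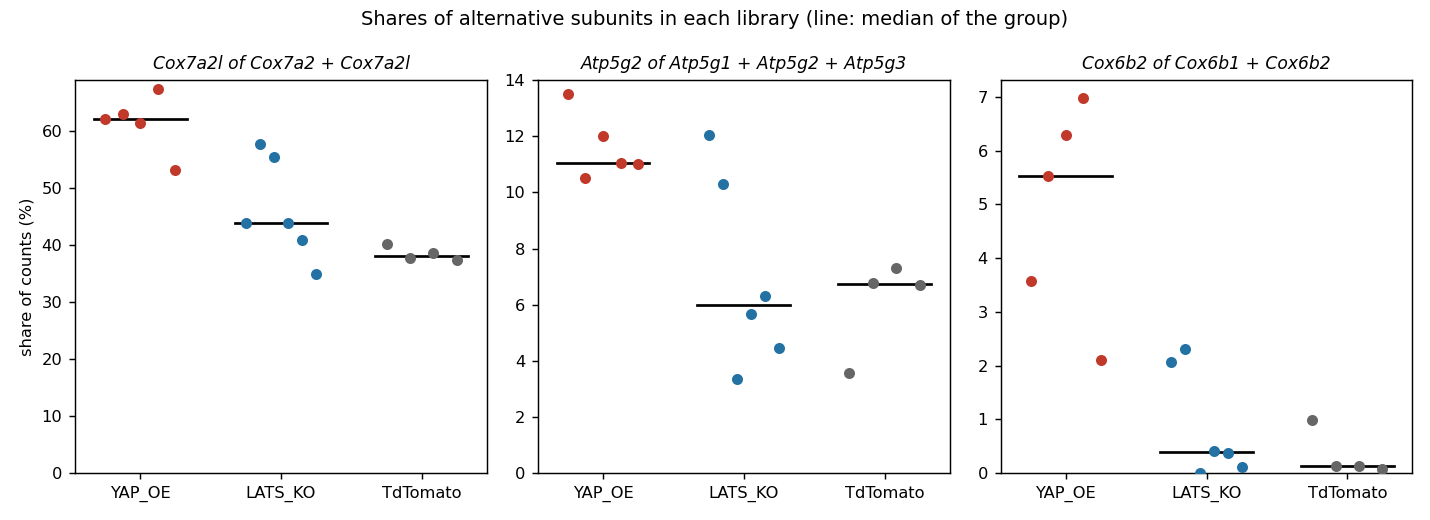
Share of counts (%) of Cox7a2l among Cox7a2 and Cox7a2l, of Atp5g2 among the 3 c subunit genes and of Cox6b2 among Cox6b1 and Cox6b2, with 1 point per library in YAP_OE, LATS_KO and TdTomato order and a line at the group's median. All YAP_OE points lie above all TdTomato points in each panel, and LATS_KO 2 is the highest or next to highest of its group in each.

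Levels per kb of transcript allow genes to be compared, and are given for the member with the highest mean over all 15 libraries in each complex, so that being highest is how it was chosen. The mean levels in YAP_OE livers were 433 for Atp5b, 386 for Cox4i1, 151 for Uqcrh, 105 for Ndufb9, 90.5 for Sdha and 12.6 CPM per kb for the assembly factor Ndufaf1. In TdTomato livers without TdTomato 1 they were 910 for Atp5b, 794 for Cox4i1, 350.2 for Uqcrh, 345 for Ndufb9, 283 for Sdha and 28.0 CPM per kb for Ndufaf1. With TdTomato 1 the means of the short transcripts of Uqcrh and Ndufb9 were 569 and 436 CPM per kb. Atp5e, also short, averaged 209 CPM per kb in YAP_OE livers, and 1363 CPM per kb in TdTomato livers with TdTomato 1 and 442 CPM per kb without it.

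Other mitochondrial genes were read beside the members in YAP_OE against TdTomato livers. Of 17 citric acid cycle genes, 11 fell and 1 rose, with a median log2 fold change of -0.90, and 6 were called in all without TdTomato 2 and 7 without TdTomato 3 or 4 or any of YAP_OE 1 to 4. Fumarase, Fh1, which acts next after complex II, fell by 1.74 ± 0.33 and the succinyl-CoA ligase subunit Sucla2 by 1.63 ± 0.31 (edgeR adjusted p = 0.00313 for both). The mitochondrial NADP-dependent isocitrate dehydrogenase Idh2 rose, with 370.0, 265, 225, 313 and 336 CPM in YAP_OE livers, and 88.8, 132, 124 and 105 CPM in TdTomato livers. The groups do not overlap (log2 fold change 1.42 ± 0.29, edgeR adjusted p = 0.00401), and Idh2 was also called in LATS_KO livers against the same controls (1.01 ± 0.28, edgeR adjusted p = 0.0287), a call lost without any 1 of the TdTomato libraries, LATS_KO 1 or LATS_KO 2 (adjusted p up to 0.0827). It was also lost in a fit of only the LATS_KO and TdTomato libraries, where 0 genes were called higher. Of 13 mobile electron carriers and their makers, 5 fell, among them Etfdh, which feeds electrons from fatty acid oxidation to ubiquinone (-1.59 ± 0.27, edgeR adjusted p = 0.00197), and cytochrome c, Cycs (-1.53 ± 0.30, edgeR adjusted p = 0.00345). Cycs was also called against LATS_KO livers (-1.24 ± 0.28, edgeR adjusted p = 0.0421), a call that 10 of the 15 libraries ended when left out singly, with an adjusted p of up to 0.166. The 5 became 3 without TdTomato 4 or YAP_OE 1, 3 or 4.

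Assembly factors and regulators were read in the same way. With all libraries in, their counts stand beside the 10.8% of all genes called lower, and shares near it are no result about a list. Of 8 complex I assembly factors outside the member rule, 2 fell, Foxred1 (-1.39 ± 0.20, edgeR adjusted p = 0.00115) and Ecsit (-1.56 ± 0.37, edgeR adjusted p = 0.00745). The 4 assembly factors of complex II and the 6 of complex III had median log2 fold changes of -0.58 and -0.61. For complex IV, 3 of 21 fell, close to that background, led by Lrpprc, which stabilises mitochondrial mRNAs (-1.77 ± 0.33, edgeR adjusted p = 0.0029). Of 19 protein import genes, 5 fell, among them the inner membrane channel Timm23 (-0.93 ± 0.19, edgeR adjusted p = 0.00389). Of 15 regulators of mitochondrial biogenesis, 2 fell, also close to it. They were the coactivator Ppargc1b, with 1.97, 1.96, 2.17, 1.29 and 2.39 CPM in YAP_OE livers, and 16.0, 6.18, 8.74 and 4.79 CPM in TdTomato livers (-2.19 ± 0.57, edgeR adjusted p = 0.0118), and its partner receptor Esrra (-0.78 ± 0.28, edgeR adjusted p = 0.0458), whose call 11 of the 15 libraries ended when left out singly, with an adjusted p of up to 0.135. Without TdTomato 4 or any of YAP_OE 1 to 4, 2 of the 19 import genes were called, and 3 without TdTomato 1. LATS_KO 3 enters the same fit, and without it 6 of the 8 complex I assembly factors outside the rule and 8 of the 21 of complex IV were called, with 5 of the 21 without TdTomato 1. The background moved too. Of all genes, 15.7% were called lower without LATS_KO 3, and 1662 of 13267 without TdTomato 1. Without TdTomato 4 or any of YAP_OE 1 to 4, the share was 6.22% to 7.88%. The factors named for the printed letters, Nrf1 and Gabpa, were not called, nor were Ppargc1a and Tfam.

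Some genes of 2 other mitochondrial lists went the other way in YAP_OE livers. Of 5 assembly factors and inhibitors of complex V, 1 rose, 1 fell and 4 lay below 0, with a median log2 fold change of -0.58. Of 7 tested uncoupling and adenine nucleotide carriers, 2 rose, 0 fell and 4 lay below 0, with a median of -0.25. Of all genes, 17.9% were called higher and 10.8% lower. Atpif1, the protein inhibitor of complex V, had 32.7, 33.6, 31.8, 42.0 and 56.8 CPM in YAP_OE livers, and 19.4, 8.17, 7.15 and 14.4 CPM in TdTomato livers, without overlap (log2 fold change 1.68 ± 0.45, edgeR adjusted p = 0.013). Slc25a4, the heart and muscle ADP/ATP carrier that supplies complex V with ADP, had 59.5, 42.3, 43.1, 72.4 and 57.0 CPM in YAP_OE livers, 35.1, 64.2, 99.8, 6.84, 4.05 and 3.24 CPM in LATS_KO 1 to 6, and 0, 0.61, 0.48 and 0.57 CPM in TdTomato livers. All YAP_OE and LATS_KO libraries exceed all TdTomato libraries, and the LATS_KO libraries split between high values in 1 to 3 and low values in 4 to 6. It rose in YAP_OE livers (log2 fold change 6.98 ± 1.16, edgeR adjusted p = 0.00185) and in LATS_KO livers (6.35 ± 1.13, edgeR adjusted p = 0.00549), folds that depend on the few control counts. The uncoupling protein gene Ucp2 rose in YAP_OE livers (1.70 ± 0.56, edgeR adjusted p = 0.034) and in LATS_KO livers (2.05 ± 0.56, edgeR adjusted p = 0.0288). Both Ucp2 calls were lost without TdTomato 2, 3 or 4, among others, with adjusted p-values up to 0.0932 and 0.0925. In a fit of only the LATS_KO and TdTomato libraries, 0 genes were called higher, so neither the Slc25a4 nor the Ucp2 rise in LATS_KO livers was called there.

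**Figure D5:**
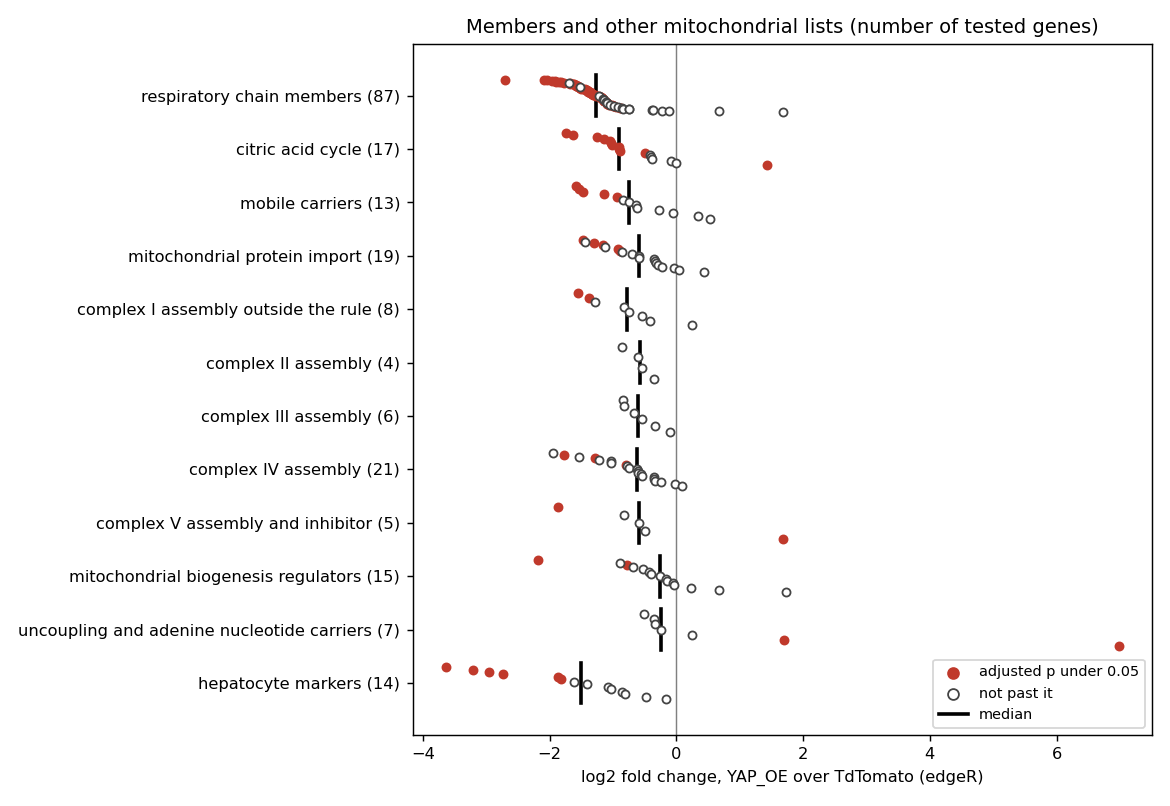
Log2 fold change of YAP_OE over TdTomato (edgeR) for the members and 11 other gene lists, with the number of tested genes in brackets, 1 point per gene, red where the adjusted p is under 0.05, and a bar at the list's median. The members' median is -1.26 and that of hepatocyte markers -1.51, and Slc25a4 is the point at 6.98.

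Of the cell type markers, those of hepatocytes and the 2 tested brown fat markers moved in the members' direction. Macrophage, cholangiocyte, stellate and fibroblast, endothelial and proliferation markers moved the other way. Of 14 hepatocyte markers, 6 fell in YAP_OE against TdTomato livers (5 without YAP_OE 4 and 11 without LATS_KO 3), with a median log2 fold change of -1.51. They summed to 88534 to 148151 CPM in YAP_OE livers, 46584 to 207932 CPM in LATS_KO livers and 123033 to 197922 CPM in TdTomato livers. Tat fell by 2.95 ± 0.43 (edgeR adjusted p = 0.00115), Pck1 by 3.63 ± 0.62 (edgeR adjusted p = 0.00206) and Apoc3 by 2.73 ± 0.60 (edgeR adjusted p = 0.00572) on the log2 scale. Of 10 macrophage markers, 9 rose, with sums of 403 to 791 CPM in YAP_OE livers, 169 to 1171 CPM in LATS_KO livers and 6.12 to 18.6 CPM in TdTomato livers. Of 6 tested cholangiocyte markers, 5 rose, with sums of 3754 to 6221 CPM in YAP_OE livers, 92.1 to 4387 CPM in LATS_KO livers and 24.2 to 47.9 CPM in TdTomato livers. All 9 stellate and fibroblast markers (6 without TdTomato 4), 3 of 7 endothelial markers (1 without TdTomato 3 or YAP_OE 4, and 6 without LATS_KO 3) and all 8 proliferation markers rose too. Of 9 striated muscle markers, 0 were high enough to test. Of 9 YAP target genes 8 rose, of 8 hypoxia-induced genes 3 fell (1 without any of YAP_OE 1 to 4), and of the 2 brown fat markers tested 1, Elovl3, fell. Both lay below 0, with a median log2 fold change of -4.03. The 5 brown fat markers listed summed to 0.822 to 11.4 CPM in YAP_OE livers, 0.798 to 54.0 CPM in LATS_KO livers and 166 to 283 CPM in TdTomato livers. Of all genes, 10.8% were called lower and 17.9% higher. Without LATS_KO 3, 15.7% were called lower, and 2925 of 13032 higher. Set against the summed hepatocyte markers, the members came to 5.55%, 5.87%, 7.20%, 6.73% and 7.52% in YAP_OE livers, 8.43%, 8.26%, 24.6%, 7.68%, 9.12% and 10.5% in LATS_KO 1 to 6, and 20.5%, 8.49%, 7.16% and 12.3% in TdTomato livers. By this measure YAP_OE 3 and 5 overlap TdTomato 3. The part of these cell types in the members' fall was not tested.

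The genes outside the members and lists whose log2 CPM followed the members' median most closely over the 15 libraries were Hint2 (Spearman's rho 0.986), Mrpl46 (0.979), Pxmp2 (0.979), Pyurf (0.975) and Gm15417 (0.971). The libraries share their depth and length skew, and the values are a description.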

How the data were processed

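Poly(A) RNA of mouse liver was sequenced in 15 directional libraries, per the labels' protocols. The authors deposited raw counts per gene in the layout STAR writes. The tools were FastQC, Trimmomatic and STAR and the genome mm10, per the submitters' processing notes, which give no versions. The reverse-strand column was used, since the forward column held 0.966% to 1.99% of strand-assigned counts. Lines that name no gene, 14.2% to 92.5% of a library, were left out. Multiply mapped reads entered no gene's count.

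Counts passing filterByExpr were scaled by TMM and tested in 1 fit of 15 libraries (12 residual degrees of freedom) with edgeR 4.0.16 (R 4.3.3), two-sided, with Benjamini-Hochberg adjustment over 13055 genes and a threshold of 0.05, after a check on simulated data. DESeq2 1.42.0 and limma 3.58.1 (voom with quality weights), another normalization, other filters, the unstranded column, other fits and left-out libraries were alternatives. No library looked deposited in duplicate, with a chi-square per degree of freedom of at least 26.3 between replicates. Coordinates are GENCODE M21 on GRCm38, and promoters come from RefSeq on GRCm38.p6. Transcript lengths were matched for 96.5% of tested genes.

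Members and lists were chosen with earlier results of these data known. Any member could be named. Values per library were taken for the 2 members with the smallest p in each complex and comparison, the highest per kb of each complex and fixed isoform sets, and up to 3 genes per other list by smallest p, of which those the comparisons turn on are printed. Nrf1, Gabpa and Ppargc1a were added for their known roles. 1 member is not reported here by name.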

Additional observations from a re-analysis of the deposited data

Results flagged for a closer look

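Among 39 members with values per library, 113 groups of 4 to 6 libraries were checked for a highest or lowest library far from the others. Such a library was held by 30. Chance alone flags about 1 in 20 independent groups, but members of the same library move together. The groups are not independent, and the 30 are a description. Of these, 23 were YAP_OE 5. Its CPM, above the rest of its group, was 77.6 for Ndufs4, 37.7 for Ndufc1, 126 for Ndufb9, 8.43 for Ndufaf6, 11.9 for Ndufaf2, 22.5 for Ndufaf1 and 138 for Sdhb. In complexes III and V it was 73.4 for Uqcr11, 139 for Uqcrh, 172 for Atp5e, 79.7 for Atp5k, 104 for Atp5g1 and 338 for Atp5g3. In complex IV it was 437 for Cox4i1, 159 for Cox5a, 241 for Cox6a1, 239 for Cox6b1, 138 for Cox6c, 2.78 for Cox7a1, 98.4 for Cox7a2, 105 for Cox7b, 119 for Cox8a and 351 for Ndufa4. TdTomato 1 stood above the other controls at 1736 CPM for Atp5e, 6.97 for Cox6b2 and 11.6 for Cox7a1. LATS_KO 6 was high at 78.4 CPM for Ndufc1. The other 3 rest on a few counts: LATS_KO 2 at 0.215 CPM for Cox4i2, LATS_KO 5 at 0.202 for Cox6a2 and TdTomato 4 at 0.0479 for Cox8b.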

How the results depend on the processing

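In YAP_OE against TdTomato livers the fall of the members kept its direction under all 12 alternatives and 15 left-out libraries, but calls moved: 37 to 74 members without 1 library, 32 with library size alone (an alternative chosen after seeing the data, as were the length correction and leaving out 3 libraries). All-gene calls were 8872 with voom, 6416 without TdTomato 1 and LATS_KO 3, 6265 without YAP_OE 5 as well, and 2585 to 4973 without 1 library. Cox7a2l turned to 0.041 with voom, 0.26 with library size alone and 0.23 with length correction, and Atp5g2 to 0.15 and 0.074 under the last 2.

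In LATS_KO against TdTomato livers, called members were 2 with voom, 1 each with length correction, without TdTomato 1 and LATS_KO 3 and without YAP_OE 5 as well, and 0 to 1 without 1 library. All genes gave 2894 with DESeq2, 3504 with voom, 1 in a fit of the 2 groups, 2245 without both libraries, 2226 without all 3, and 588 to 1798 without 1. With voom the medians turned to 0.053 (complex I), 0.024 (III), 0.051 (IV) and 0.040 (V), with 0.050 for Ndufs4, 0.15 for Ndufc1, 0.024 for Uqcrh, 0.070 for Cox4i1 and 0.34 for Atp5e. Atp5e spanned -1.91 to 0.10 without 1 library. In YAP_OE against LATS_KO livers, called members were 8 with DESeq2, 84 with voom, 16 without both libraries, 21 without all 3, 1 with length correction and 0 to 5 without 1. All genes gave 779, 7325, 1688 and 1429 under the first 4 of these and 36 to 389 without 1. The causes were not tested.

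Same-numbered libraries correlated at -0.25 to 0.23 over 13 pairs, and differently numbered ones at -0.44 to 0.41. The correlations did not set same-numbered pairs apart, and whether the numbers mark a pairing cannot be told from them. Number 6 occurs only in LATS_KO, so a fit with the replicate number as a block takes LATS_KO 6 out of every comparison. With that block, 71 members were called in YAP_OE against TdTomato livers, all lower (9.27% of all genes were called lower). In LATS_KO against TdTomato livers 13 of 87 were called, all lower (all genes 740, of which 158 lower). There the members' median log2 fold change was -0.89, and 57 had an unadjusted p under 0.05 by edgeR. In YAP_OE against LATS_KO livers 13 genes in all and 0 members were called. In depth, 8501 and 9710 genes had a count in TdTomato 1 and LATS_KO 3, and 13372 or more in the other libraries.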
